A study of Mus musculus with 2 samples.

Results

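The array carries 4441 probes for long intergenic noncoding RNAs (lincRNAs), out of 56605 non-control probes, and they are described here between WT and MeXis null macrophages. A probe was taken as a member when its array annotation contained the word lincRNA. The 19 such probes between 46 and 61 Mb of chromosome 4, the interval that holds MeXis, were left out. All but 1 of the members could be measured, which left 4440. No measured value entered the choice of members.

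Each member is a single-stranded probe of 60 bases. They belong to 3226 named regions, which range from 62 to 538251 bases with a median length of 7200.5, and 2263 of the regions have 1 probe. A region name gives its chromosome, start and end on the mm9 mouse genome build, and the letter F or R gives its forward or reverse strand. Another 827 regions have probes against both strands, so that an RNA from either side of the DNA could be seen. Merging regions that overlap left 2145 loci. Of the 4441 probes, 4350 have a coordinate on mm9 and all 4350 lie on the strand their name gives. The remaining 91 have none, and 12 of these 91 were well above background on both arrays.

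Macrophages of the mouse peritoneum, the lining of the abdominal cavity, were taken from wild-type (WT) mice and from mice null for MeXis, both given as bl6. MeXis is a long noncoding RNA gene near Abca1, and the allele that removes it is not described in the labels. Both kinds of cell were in DMEM with serum and antibiotics, no ligand or other agent is named for either, and no age is given. RNA from 3 samples per genotype was pooled onto 1 one-colour array labelled with Cy3. Since each genotype has 1 array, differences are between those arrays, without replicates, and no test of genotype could be made. The single MeXis probe, named AI427809 on the array (mm9 chr4:53274285-53274344), had signals of 12.3 (WT) and 8.44 (MeXis null). Neither was well above background, so the probe does not check the labels.

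lincRNAs are transcribed from DNA between protein-coding genes, are usually spliced and often polyadenylated, and code for no known protein. Most are made at lower levels and in fewer cell types than messenger RNAs. Some act in the nucleus on chromatin or on nuclear bodies, others bind proteins or microRNAs, and for most no function is known. In macrophages several are induced by microbial products or by lipid-sensing nuclear receptors.

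The probe sequences below carry the patterns described later and are printed as on the array, 5′ to 3′, with positions on mm9. The first 3 are among the brightest members and are rich in cytosine, and capitals mark every run of at least 4 C.
chr14:78924115-78938125_F (probe at chr14:78936616-78936675): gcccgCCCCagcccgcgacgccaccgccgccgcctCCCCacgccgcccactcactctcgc
chr6:83368261-83407280_F (probe at chr6:83406215-83406274): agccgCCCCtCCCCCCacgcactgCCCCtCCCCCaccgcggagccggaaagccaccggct
chr12:73838608-73862621_R (probe at chr12:73862326-73862385): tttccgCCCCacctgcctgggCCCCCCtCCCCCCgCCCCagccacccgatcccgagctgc
The brightest member of all and the third brightest have no such run and are printed for contrast, with no capitals.
chr8:48476637-48492537_F (probe at chr8:48484736-48484795): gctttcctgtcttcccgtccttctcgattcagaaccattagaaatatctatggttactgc
chr17:17481706-17482457_R (probe at chr17:17482318-17482377): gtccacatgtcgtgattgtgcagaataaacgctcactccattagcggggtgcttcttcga

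A second set shows members of regions on different chromosomes that share sequence, which bears on whether their values are separate measurements. Capitals mark the 51 bases shared by the member furthest higher in MeXis null and a member on chromosome 14.
chr5:96591892-96606467_F (probe at chr5:96603301-96603360): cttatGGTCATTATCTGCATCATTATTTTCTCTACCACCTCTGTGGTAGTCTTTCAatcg
chr14:55433382-55452757_R (probe at chr14:55445108-55445167): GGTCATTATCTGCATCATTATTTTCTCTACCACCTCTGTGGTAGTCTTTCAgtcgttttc
Another probe of the chromosome 5 region shares 26 bases, in capitals, with the array's probe for the protein-coding gene Ifitm3.
chr5:96591892-96606467_F (probe at chr5:96603471-96603530): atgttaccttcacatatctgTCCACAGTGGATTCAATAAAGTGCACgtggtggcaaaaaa
A pair of bright members on chromosomes 11 and 2 has 26 bases in common, again in capitals.
chr11:22681800-22707775_R (probe at chr11:22686751-22686810): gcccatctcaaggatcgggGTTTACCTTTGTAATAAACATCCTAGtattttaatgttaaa
chr2:167085700-167117795_R (probe at chr2:167106861-167106920): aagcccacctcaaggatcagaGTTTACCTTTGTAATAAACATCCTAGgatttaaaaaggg

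The last set holds the 2 members furthest lower on the MeXis null array among those measured on both, the member with the largest bound, and a TUG1 probe with a probe against the opposite strand of its locus. No bases are marked in these.
chr14:33923944-34003394_R (probe at chr14:33971874-33971933): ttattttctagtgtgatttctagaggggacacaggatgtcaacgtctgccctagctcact
chr5:74487385-74497428_F (probe at chr5:74490215-74490274): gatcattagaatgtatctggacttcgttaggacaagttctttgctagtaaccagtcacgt
chr13:19611679-19620954_R (probe at chr13:19617892-19617951): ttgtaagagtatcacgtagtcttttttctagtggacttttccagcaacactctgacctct
TUG1 (probe at chr11:3540263-3540322): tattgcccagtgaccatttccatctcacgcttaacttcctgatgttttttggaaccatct
chr11:3538125-3554450_F (probe at chr11:3547405-3547464): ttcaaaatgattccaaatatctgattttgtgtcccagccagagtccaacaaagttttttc

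Most lincRNA probes were not marked well above background by the scanner software. A probe was well above background, or seen, when the software marked it so, and signals are processed intensities in scanner units. On WT, 1347 members (30.3%) were well above background, against 45.5% of all non-control probes. MeXis null had 1106 (24.9%), against 41.6%. Both arrays saw 1048 members (23.6%), against 40.3%, and neither saw 3035 (68.4%). Among probes for RefSeq messenger RNAs 54.8% were seen on both. A lincRNA probe was therefore seen less often than the average probe on each array. Detected members were also dimmer, with a median signal of 87.5 on WT against 346 for the other detected probes, and of 134 against 493 on MeXis null. Signals of at least 1000 were reached by 167 members on WT and by 165 on MeXis null.

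**Figure D1:**
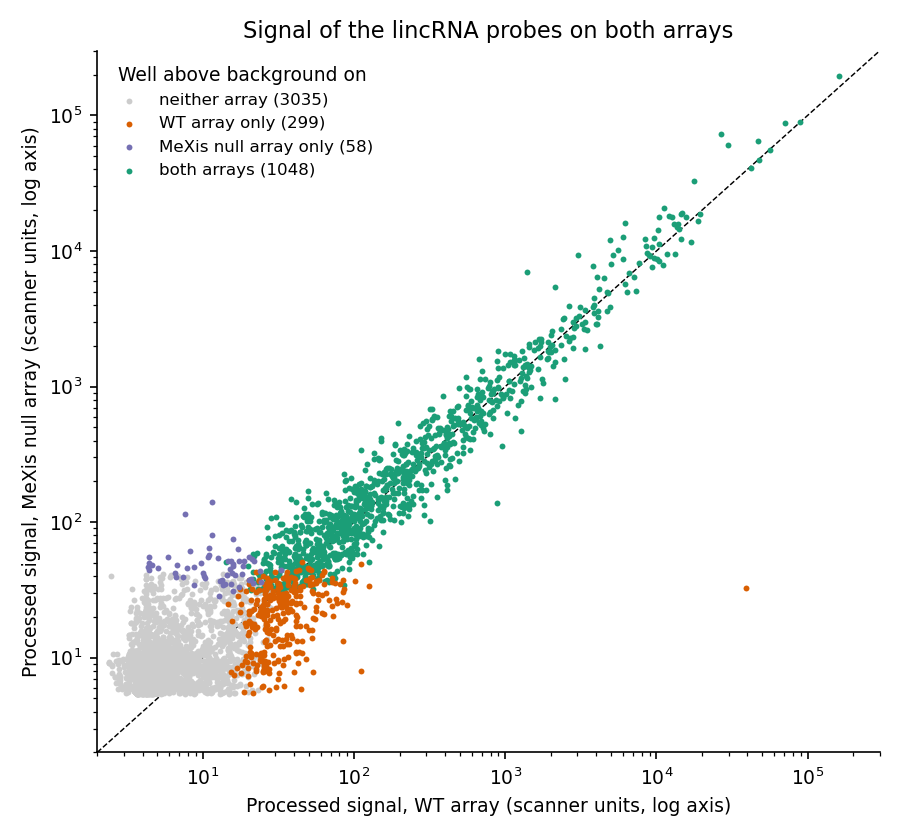
Processed signal of each of 4440 lincRNA probes on the WT array (x axis) and the MeXis null array (y axis), in scanner units on log axes, coloured by the array on which the probe was well above background. The dashed line marks equal signal; the 1048 probes seen on both arrays lie along it, and 1 probe sits alone at 39289.9 on WT and 32.5 on MeXis null.

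More members were seen on WT alone than on MeXis null alone, 299 (6.73%) against 58 (1.31%). Over all non-control probes these shares were 5.13% and 1.26%. The dimmest signal marked well above background was 12.1 on WT and 27.3 on MeXis null, so WT had the lower threshold. Of the 299 WT-only members, 249 read under 50, and their median was 31.4. When 1 common floor was set on both arrays, WT kept 1231 members and MeXis null 1106, with 204 on WT only (4.59%) and 79 on MeXis null only (1.78%). For other probes these shares were 3.50% and 1.68%. The negative control spots, which match no mouse RNA, were well above background in 2 of 308 cases on WT and 0 of 308 on MeXis null.

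Detection went with the base composition of the probe. Of the 99 members with under 35% guanine and cytosine, 8.08% were seen on both arrays. The share was 19.3% of 1755 members at 35 to 45%, 22.6% of 1901 at 45 to 55%, 36.0% of 592 at 55 to 65%, and 63.4% of the 93 members at 65% or more. Other probes ranged from 20.6% to 54.2% over the same bins. The most GC-rich lincRNA probes were thus seen at least as often as other probes of like composition, and those in each of the 4 lower bins less often.

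Runs of cytosine and runs of guanine, the same motif read on opposite strands, differed in this respect. Members whose longest run of C was 3 or less were seen on both arrays in 20.7% of cases. Those with a longest run of 4 were seen in 36.2%, of 5 in 52.7% and of 6 or more in 68.8% (22 of 32). For runs of G the shares were 23.8%, 21.7%, 24.3% and 27.3% (6 of 22). A run of at least 4 C is in 14.8% of members and 10.3% of other probes, and a run of at least 4 G is in 13.2% and 10.1%. Among other probes 48.0% of those with at least 4 C in a row and 45.5% of those with at least 4 G were seen on both arrays. At a longest run of 5 the shares of other probes were 54.0% for C and 45.6% for G, and at 6 or more 58.1% and 51.7%. Pooled over runs of at least 4, the gap between C and G was 18.2 percentage points in lincRNA probes and 2.42 in other probes. No test was made of this gap, and a probe can hold both runs.

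**Figure D2:**
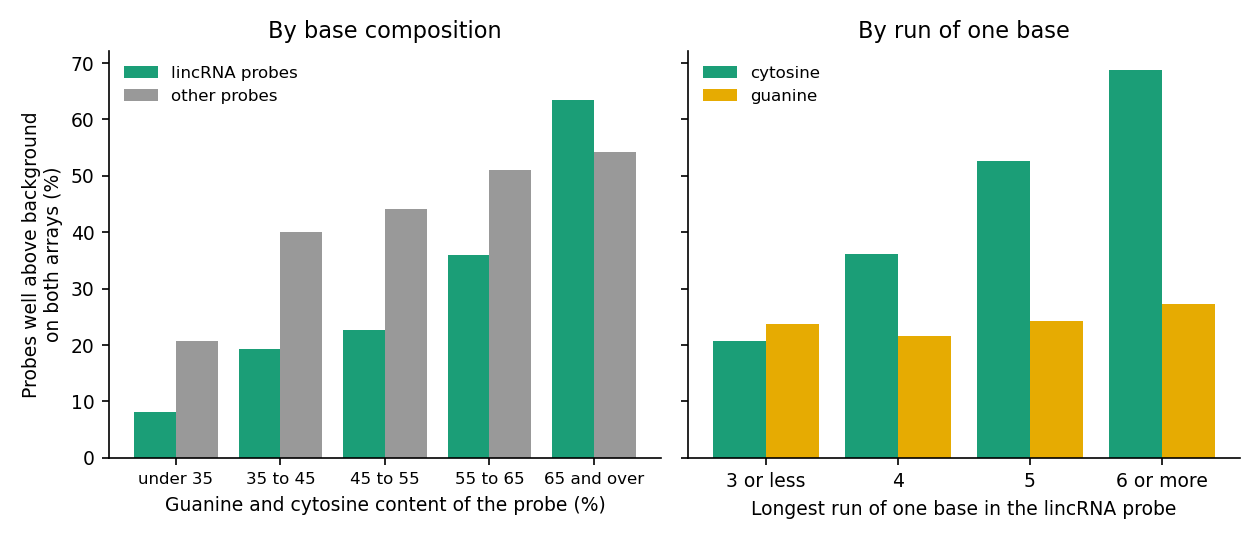
Share of probes well above background on both arrays (y axis, %) by the guanine and cytosine content of the probe (left, lincRNA probes beside other probes) and by the longest run of cytosine or guanine in the lincRNA probe (right). The share of lincRNA probes goes from 8.08% to 63.4% with base composition, and from 20.7% to 68.8% with runs of cytosine, while for guanine it stays between 21.7% and 27.3%.

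Position within the region and the presence of a polyadenylation signal went with smaller differences in detection. Members under 500 bases from the 3′ end of their region were seen on both arrays in 19.2% of cases (of 1789). That share was 22.5% at 500 to 2000 bases, 28.8% at 2000 to 10000 bases and 27.4% beyond. The hexamer AATAAA, the commonest signal for cutting and polyadenylating an RNA, was in 3.99% of members and 10.2% of other probes. Of the 177 members that hold it 27.1% were seen on both arrays, against 23.5% of those that lack it. Its reverse complement TTTATT was in 2.77% of members and 3.93% of other probes. Where a RefSeq messenger RNA probe lay inside the region, 32.2% of 183 members were seen on both arrays, against 23.2% of the other 4257.

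Where both strands of a region could be read, RNA was mostly seen from 1 of them. Of the 827 such regions, 302 had members well above background on both arrays from 1 strand alone, 144 forward and 158 reverse. Both strands were seen in 91, which is 23.2% of the 393 regions with any signal (exact binomial 95% interval 19.1 to 27.6%, for counting error only). The reverse strand was seen in 38.7% of regions whose forward strand was seen, and in 26.7% of those whose forward strand was not. By array, WT showed 341 regions on 1 strand and 137 on both, and MeXis null 313 and 98.

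The 10 brightest members were of mixed composition, and their signals on the arrays were mostly close. Differences from here on are MeXis null minus WT on the log2 scale, after each array was scaled to its 75th percentile. chr8:48476637-48492537_F, printed above, read 161780 (WT) and 194667 (MeXis null), a difference of 0.19 with a scanner error of 0.20. The C-rich chr14:78924115-78938125_F read 89063 and 88985, a difference of -0.08. For the reverse-strand chr17:17481706-17482457_R the signals were 70908 and 87950 (0.24). These 3 lay within 1.5-fold of equality.

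Of the other C-rich members, chr6:83368261-83407280_F read 56315 on WT and 55578 on MeXis null (-0.09). chr12:73838608-73862621_R read 47428 and 47139 (-0.08). All 3 C-rich probes printed above therefore differed by less than their scanner error. Of the 10 brightest members, 6 held a run of at least 4 C and 3 a run of at least 5. Over the 58 members brighter than 5000, 21 held a run of at least 4 C.

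chr12:73838608-73862621 is a region in which both strands were bright. Its forward probe, 80.0% G or C, read 18821 (WT) and 16635 (MeXis null), a difference of -0.25. A second forward probe of the region read 12.7 and 17.4 and was seen on neither array. Signals of 18821 and 12.7 thus came from the same strand of the same region.

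Among the 10 brightest, 3 members named here differed by more than 1.5-fold, each towards MeXis null. chr11:22681800-22707775_R read 26612 (WT) and 72477 (MeXis null), a difference of 1.37 (2.59-fold, scanner error 0.20). The probe on the other strand of its region read 403 and 447 (0.08). chr2:167085700-167117795_R, which shares the 26 bases printed above, is on the array 10 times, and its 8 usable spots differed by a mean of 0.20 with an SD of 0.59 between spots. The 1.37 was therefore not matched by the probe that shares sequence. chr7:108209996-108216032_R read 29681 and 60271 (0.95) and has no coordinate on mm9. It shares 28 bases with a probe that the array names for the ribosomal protein gene Rps29, and that probe read 45099 and 56773 (0.26). Another partner, NAP093275-001, shares 27 bases and read 49327 and 81606 (0.65). chr2:31714946-31716972_F read 17798 and 32600 (0.80), but -0.09 with normexp background correction. In the pairs of this paragraph, chr11:22681800-22707775_R and chr7:108209996-108216032_R were further from 0 than the partners that share their sequence.

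**Figure D3:**
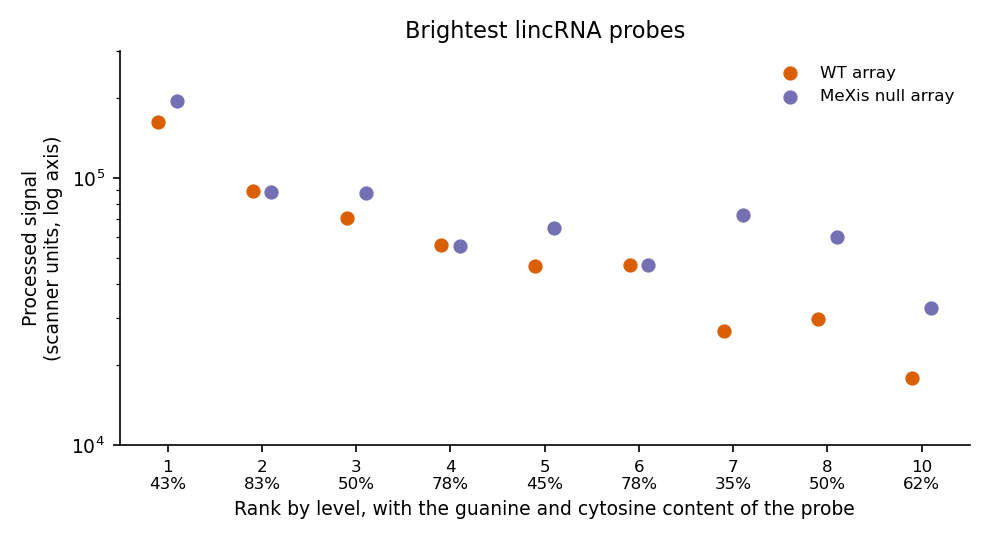
Processed signal (y axis, scanner units, log axis) of 9 of the 10 brightest lincRNA probes on the WT and MeXis null arrays, ordered by level, with the guanine and cytosine content of each probe under its rank. Ranks 2, 4 and 6 are the C-rich probes, whose points for the arrays nearly coincide; rank 7 is chr11:22681800-22707775_R at 26612 and 72477.

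Error had to be read from spots, since arrays were not repeated. Among 285 probes of all kinds printed at least 5 times, the difference between arrays had a median SD of 0.47 between spots of 1 probe. The range that holds 95% of normal values with that SD is 0.91 to either side, used below as the spread limit. Members printed 10 times give their own spread. chr17:39983902-39985688_F had a mean difference of -0.11 (SD 0.17 over 10 spots) and chr17:48068261-48087905_F of -0.02 (SD 0.23 over 10 spots). In the region chr6:116123643-116124550_F a probe gave 0.70 (SD 0.72 over 10 spots, from -0.37 to 2.06). A probe next to it gave 0.43 (SD 0.35 over 9 spots). Spots of 1 lincRNA probe thus ranged from a lower value to a more than 4-fold higher one on the same pair of arrays.

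Between the genotypes the lincRNA probes as a whole differed little. Over the 1048 members seen on both arrays the median difference was 0.06, against 0.07 over all 22729 non-control probes so seen. Their SD was 0.57, against 0.66, and the middle 50% lay between -0.28 and 0.43. The range was from -2.74 to 2.24. Within the limit of 0.91 lay 929 members (88.6%), against 84.5% of all. Quantile normalization, loess on level and scaling to the median or to the 75th percentile over every probe moved the median of all probes by under 0.1, and the members' median was then between -0.06 and 0.

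At least 2-fold higher in MeXis null were 64 members (6.11%), against 8.04% of all probes. At least 2-fold lower were 24 (2.29%), against 4.53%. Both shares were below the background of the array, and all 88 members lay beyond the 95% range of their own scanner error. At 1.5-fold the counts were 183 higher and 119 lower, 17.5% and 11.4% against 20.2% and 13.5%. At 3-fold they were 8 and 2, 0.763% and 0.191% against 1.54% and 0.999%. Beyond the spread limit lay 85 higher (8.11% against 9.84%) and 34 lower (3.24% against 5.66%). The 2-fold members lay in 83 loci.

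The excess of higher over lower members depended on the scaling and on neighbouring spots. With quantile normalization 49 members were 2-fold higher and 34 lower, with loess on level 42 and 41, and with the 75th percentile of all probes 50 and 32. Subtracting the median difference of the 100 nearest spots, a local surface correction, left 24 higher (2.29% against 3.67%) and 19 lower (1.81% against 3.3%). Of the 64 higher members 21 were still 2-fold after that correction, 15 with normexp background correction and 8 under each of these corrections. Of the 24 lower members 9 were still 2-fold lower after the first, 10 after the second and 4 under each. Signals of at least 100 on both arrays were found for 19 of the 64 and 17 of the 24. A WT signal under 100 was found for 45 of the 64, and a MeXis null signal under 100 for 23.

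**Figure D4:**
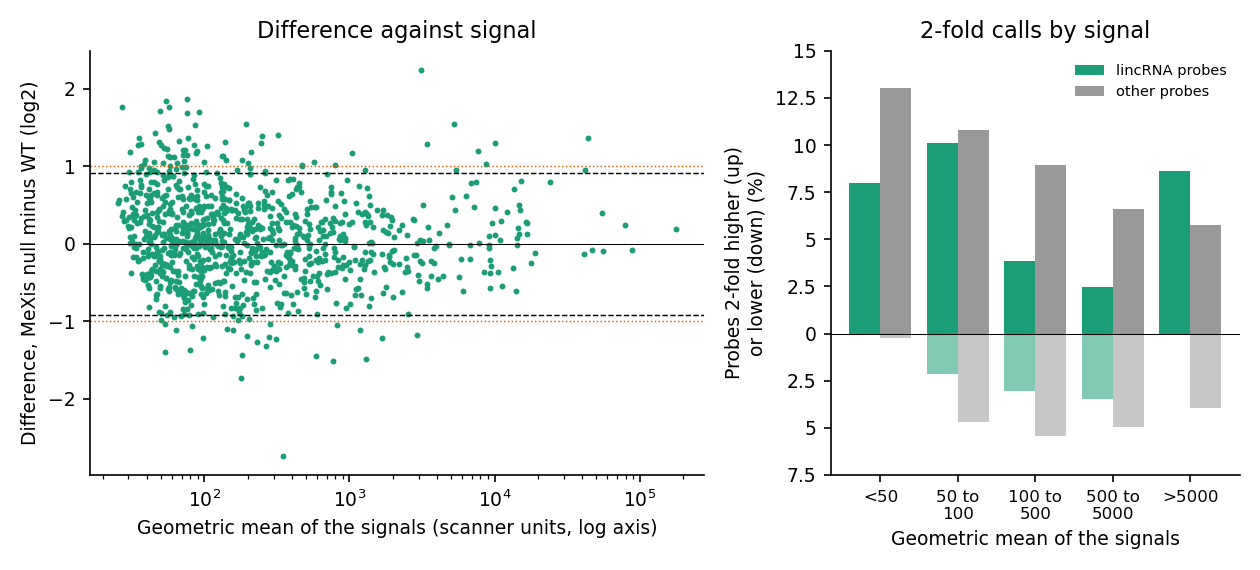
Left, difference between the arrays (y axis, log2, MeXis null minus WT) against the geometric mean of the signals (x axis, scanner units, log axis) for the 1048 lincRNA probes seen on both; dashed lines mark the spread limit of 0.91 and dotted lines 2-fold. Right, share of probes 2-fold higher (upwards) or lower (downwards) by signal for lincRNA and other probes, where 10.1% of lincRNA probes at 50 to 100 and 2.49% at 500 to 5000 were higher.

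By signal, 12 of the 150 members under 50 were 2-fold higher and 0 were lower, against 162 and 3 of 1242 other probes. The dimmest signal marked was 27.3 on MeXis null and 12.1 on WT, which left little room for a lower call under 50. The shares were 10.1% and 2.17% of the 277 at 50 to 100, against 10.8% and 4.69%. They were 3.87% and 3.04% of the 362 at 100 to 500, against 8.94% and 5.42%, and 2.49% and 3.48% of the 201 at 500 to 5000, against 6.59% and 4.95%. Of the 58 members above 5000, 5 (8.62%) were 2-fold higher and 0 lower, against 5.73% and 3.93% of other probes. Of these 5, the members of chr5:96591892-96606467_F, chr14:55433382-55452757_R, chr11:22681800-22707775_R and chr4:33364774-33364898_R share at least 25 bases with a probe of another region or kind. The exception was chr16:90038086-90127636_F, which read 5970 and 12783 (1.02).

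Markers of other cells also differed between the pools. All 11 macrophage markers measured were well above background on both arrays, with a median difference of 0.43 that became 0.05 after the local surface correction. Summed signals went from 7327 on WT to 12907 on MeXis null for 7 fibroblast markers and from 617 to 1717 for 5 mesothelial markers. Of the fibroblast markers Col1a2, the brightest, read 2905 and 6621, and 3 were at least 2-fold higher. Col3a1 was at -0.13, and Lum read 131 and 40.3 and was seen on WT only. The 6 B cell markers went from 2074 to 784. The 5 neutrophil markers went from 19996 to 13011, mostly through Csf3r (18755 and 11696), while Elane read 803 and 977 and S100a9 and Ly6g were seen on neither array. T and NK cell markers went from 299.9 to 147 (1 of 5 seen on both arrays), eosinophil markers from 2454 to 1538 and mast cell markers from 350.0 to 325. The eosinophil sum was nearly all Siglecf (2430 and 1538), with Epx, Prg2 and Ccr3 seen on neither array. Of the mast cell markers Tpsb2 read 252 and 325, and Cpa3 and Cma1 were seen on WT only. Their part in the lincRNA differences was not tested. In pooled RNA, fewer cells of a type and less RNA per cell cannot be told apart.

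The member furthest higher was chr5:96591892-96606467_F, whose printed probe read 1394 on WT and 6954 on MeXis null. The difference was 2.24 (4.74-fold, scanner error 0.20), and 1.66 after the local surface correction. The other forward probes of this region read 6231 and 16175 (1.30), and 5143 and 9320 (0.78). Its reverse-strand probe read 67.2 and 147 (1.06). All 4 probes of the region were higher on MeXis null, 3 of them beyond the limit of 0.91. After the local surface correction the other forward probes were at 1.09 and 0.82 and the reverse-strand probe at 0.79. The forward probe at 0.78 before correction overlaps the printed probe, so they are not separate readings.

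chr14:55433382-55452757_R, which shares 51 bases with that member, read 3014 and 9274, a difference of 1.55, or 0.54 after the local surface correction. Another reverse probe of the region read 4985 and 8054 (0.62), and a forward probe 86.3 and 225 (1.31). The Ifitm3 probe, for an interferon-induced membrane protein that restricts virus entry, read 2161 on WT and 11722 on MeXis null (2.36). The printed pair shares 51 bases, and the Ifitm3 probe shares 26 with a probe of each region, so these are not counted as separate observations. Whether the same RNA gave these signals was not tested. Neither region lies on chromosome 7, where the array places the Ifitm3 probe.

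The next members furthest higher were dim on WT and rested on single probes. chr5:23349978-23402028_R, with 68.3% G or C and no coordinate for the probe, read 38.5 on WT and 148 on MeXis null (1.86, or 1.00 with normexp). chr7:133402766-133415516_R read 28.2 and 107 (1.85, or 0.55 with normexp). chr15:86035939-86042539_R read 30.4 and 109 (1.76, or 0.98 with normexp), while 3 other probes of its locus seen on both arrays gave -0.12, 0.12 and -0.23. The other probes of the locus thus did not move with the one that was furthest from 0.

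chr13:102601098-102617573_F read 14.3 and 51.1 (1.76), and its difference with normexp background correction was 0.29. chr13:94182877-94203935_R read 26.4 and 91.6 (1.72, or 0.78 with normexp), and a probe of an overlapping region on the same strand read 1771 and 1067 (-0.81). chr17:22045002-22046886_R read 49.3 and 169 (1.71, or 1.23 with normexp), while the other probe of that region read 173 and 105 (-0.80). In the last 2 of these 3 cases probes of 1 locus and strand therefore pointed in opposite directions. The locus of chr13:102601098-102617573_F has no other lincRNA probe to set beside it.

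chr4:11893711-11921443_F read 41.4 and 141 (1.69) and chr14:62254361-62301162_R read 111 and 342 (1.54), which became 1.04 and 1.23 with normexp. The locus of the latter has 3 more reverse probes seen on both arrays, at -0.81, -0.29 and 0.69. Over the 10 members furthest higher, 7 had another probe of the locus seen on both arrays. Of these 15 other probes 9 were higher and 3 at least 2-fold higher, and all 3 lie in the chromosome 5 and chromosome 14 regions described above.

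**Figure D5:**
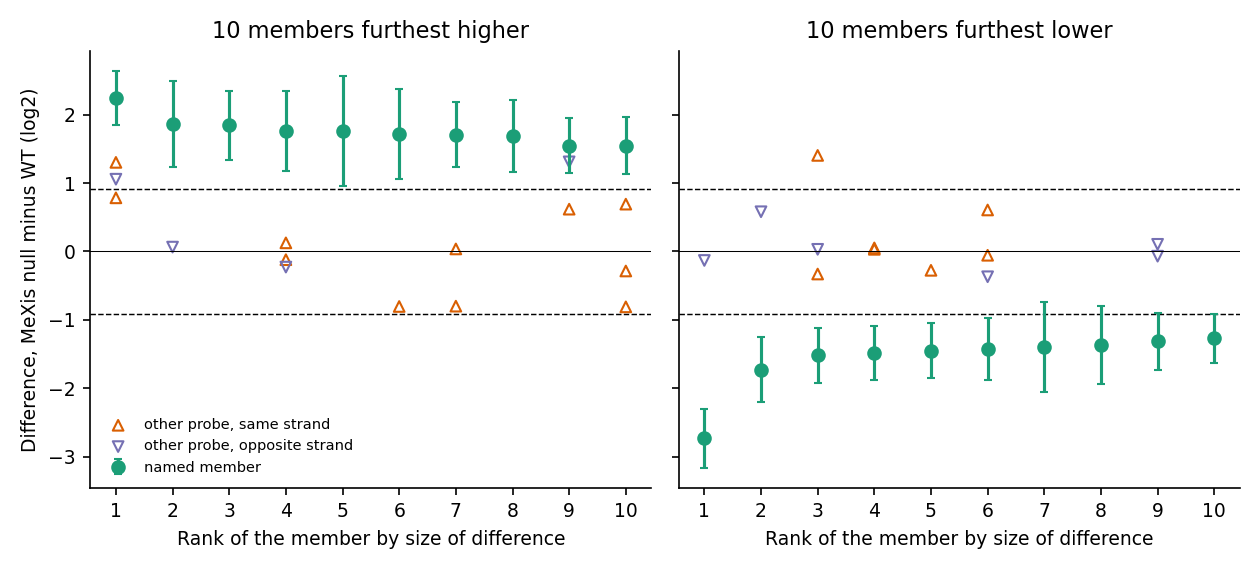
Difference (y axis, log2, MeXis null minus WT) of the 10 lincRNA probes furthest higher (left) and furthest lower (right), by rank, with bars of the 95% range of the scanner error, and of the other probes of the same locus seen on both arrays (open triangles, by strand). Dashed lines mark the spread limit of 0.91; of 15 other probes on the left 3 are 2-fold higher, and of 13 on the right 0 are 2-fold lower.

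On the lower side, chr14:33923944-34003394_R read 880 on WT and 139 on MeXis null. Its difference of -2.74 (6.66-fold lower, scanner error 0.22) stayed at -2.24 after the local surface correction and -2.46 with normexp background correction. The probe on the forward strand of the region read 688 and 661 (-0.13). A reverse probe of an overlapping region read 20.7 and 10.8 and was seen on WT only. This was the only member seen on both arrays that was more than 4-fold lower.

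chr5:74487385-74497428_F read 320 and 102 (-1.73), and the opposite strand of its region 33.9 and 53.4 (0.58). chr9:65368908-65377592_R read 1274 and 469 (-1.52), while a second probe of the same region and strand read 194 and 541 (1.40). After the local surface correction these were -0.83 and 0.72. chr6:11996975-12037300_F read 2138 and 803 (-1.49), against 3376 and 3683 (0.05), and 3095 and 3328 (0.03), for the other forward probes of its region. In the last 2 regions a second probe did not follow the first, and in 1 of them it was beyond the spread limit the other way before that correction.

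chr8:124697835-124699013_F read 952 and 367 (-1.45), and a probe downstream in the same locus 223 and 194 (-0.28). chr5:22928221-22939127_R read 291 and 113 (-1.43), with 3 other probes of the locus at 0.61, -0.06 and -0.37. chr16:40592137-40594284_F read 85.5 and 34.1 (-1.40, or -0.62 with normexp) and has no other probe. Over the 10 members furthest lower, 7 had another probe of the locus seen on both arrays, and of these 13 probes 6 were lower and 0 at least 2-fold lower.

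Of the 10, 7 have a RefSeq messenger RNA probe within 100 kb that was seen on both arrays. chr3:113296823-113298691_R read 125 and 50.9 (-1.37, or -0.58 with normexp), and lies 10438 bases from the probe of Rnpc3, a protein of the minor spliceosome, which read 415 and 272 (-0.69). chr4:126710640-126721240_F read 352 and 153 (-1.27), but -0.09 with normexp background correction. It lies 3898 bases from the probe of Sfpq, a splicing factor of paraspeckles, which read 2170 and 1841 (-0.31). chr11:3538125-3554450_F read 409 and 173 (-1.32, or -0.82 with normexp) and covers the TUG1 locus on the opposite strand. These 3 members were thus within 2-fold with normexp background correction. The nearest genes to others of the 10 were also within the spread limit, with Usp46 at 0.07, Plekho2 at -0.19, Phf14 at -0.79, Kmt2e at 0.22 and, beside the TUG1 locus, Morc2a at -0.33. After the local surface correction Phf14 was at -1.25, beyond that limit, and its member chr6:11996975-12037300_F at -0.76. The other genes stayed within the limit.

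Members seen on 1 array allow a bound on the difference, taken on the scaled values against the higher of the dim signal and the dimmest signal marked on that array. chr13:19611679-19620954_R read 39289.9 on WT and 32.5 on MeXis null, where it was not well above background. After the scaling it was 1274-fold lower on MeXis null, the largest difference of any probe on the arrays. Its dim signal was above the dimmest one marked on MeXis null, so the bound equals the measured difference. That difference of -10.31, with a scanner error of 0.39, became -8.50 with normexp background correction. The member was also the only probe over 10000 on WT that was not well above background on MeXis null, and 5 probes over 1000 on WT were not. The other 3 lincRNA probes of the locus read from 3.37 to 18.1 on WT and from 5.97 to 28.5 on MeXis null and were seen on neither array. One of these lies on the same strand. The 10 nearest spots read from 5.03 to 4318 on WT. Within the spot the 38 pixels on WT had a coefficient of variation of 0.187, and the median for bright spots was 0.130. The value rests on 1 spot per array and no other probe of the locus repeats it.

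Other bounds were smaller, and with normexp background correction the same members differed by less. On the lower side chr1:82892851-82943201_R (110 on WT, 8.03 on MeXis null) was at least 4.27-fold lower (-0.83 with normexp). The bound of chr6:126768864-126769326_R (125 and 33.6) again equals its measured difference, 3.92-fold lower (-1.35 with normexp). Towards MeXis null, chr11:120097758-120098581_F, 70.0% G or C, read 11.48 (WT) and 141 (MeXis null) and was at least 11.05-fold higher, but 1.17 on the log2 scale with normexp. chrX:18744367-18853992_R read 7.57 and 116 and was at least 9.07-fold higher (1.32 with normexp), and the forward strand of that region read 10383 and 11343 (0.05). chr3:37543523-37613073_R (11.44 and 80.5) was at least 6.32-fold higher (0.77 with normexp). Of the 58 members seen on MeXis null only, 50 (86.2%) had a bound of at least 2-fold, against 86.0% of all such probes. Of the 299 on WT only, 184 had a bound and 32 (10.7%) one of at least 2-fold, against 11.7% of all such probes. The shares of members were thus near those over the array. The dimmest signal marked was 12.1 on WT and 27.3 on MeXis null, so a 2-fold bound was easier to reach for members seen on MeXis null only. The shares of the arrays can therefore not be set against each other.

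Some members carry the names of known long noncoding RNAs, and 5 of these 10 were well above background on both arrays. NEAT1, the RNA scaffold of paraspeckles, read 14869 on WT and 18928 on MeXis null (0.27). XIST, which coats the inactive X chromosome, read 2331 and 2043 (-0.26). TUG1, a widely expressed lincRNA, read 814 and 921 (0.10). KCNQ1ot1, an imprinted antisense RNA, read 103 and 145 (0.41). These 4 differed by less than the spread limit of 0.91. NRON, a noncoding repressor of the transcription factor NFAT, read 26.01 and 57.9 (1.08, scanner error 0.37), which became 0.55 both with the local surface correction and with normexp background correction.

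Seen on neither array were TSIX, the antisense partner of XIST, H19, an imprinted RNA, PINC, HOTAIR and lincP21. Probes of other design against the same RNAs, which are not members, can be set beside these. XIST gave -0.18 there against -0.26, and NEAT1 gave -0.28 and 0.17 against 0.27. TUG1 gave -0.67 against 0.10. For KCNQ1ot1, 4 of 5 probes were seen on both arrays and ranged from -1.51 to 0.99, so probes along this long RNA disagreed by more than the spread limit. The other probes for H19, TSIX, PINC and NRON were seen on neither array, so the difference of NRON had no second probe.

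Probes of 1 region agreed weakly with each other. Of 69 pairs on the same strand, both seen on both arrays, 59.4% had differences of the same sign (exact binomial 95% interval 46.9 to 71.1%), and of 108 pairs on opposite strands 51.9% had. Among 5759 pairs of probes for 1 RefSeq messenger RNA gene the share was 54.0%. Across pairs, Pearson's r of the differences was 0.19, 0.15 and 0.12, as a description of probes that share the same 2 arrays. At least 2-fold in the same direction were both probes of 4 of all 177 region pairs, and in opposite directions of 2. Among the 5759 pairs of a gene these counts were 81 and 18. The interval for same-strand pairs includes both 50% and the share among pairs of a gene. It takes pairs as independent, though 1 probe can be in several pairs, so it may be too narrow.

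lincRNAs can lie close to genes that they or their promoters act on, so each member was also set beside the nearest RefSeq messenger RNA probe within 100 kb. In 761 such pairs, a median of 26531 bases apart, 53.1% had the same sign (49.5 to 56.7%). Between neighbouring genes, 13209 pairs gave 50.9%. Within 10 kb it was 52.7% of 186 pairs, and r over the 761 pairs was 0.08. A gene probe can be in several of the 761 pairs, so the interval of 49.5 to 56.7% may be too narrow. Both probes were at least 2-fold in the same direction in 6 of the 761 pairs and in opposite directions in 3. Between neighbouring genes these counts were 115 and 84 of 13209.

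Of the pairs with the same direction, chr4:11893711-11921443_F (1.69) lies 33481 bases from the probe of Pdp1, an activator of pyruvate dehydrogenase, which read 517 and 1477 (1.44). chr14:62254361-62301162_R (1.54) lies 37597 bases from that of the ubiquitin ligase Trim13, at 267 and 761 (1.44). chr11:22681800-22707775_R (1.37) lies 48405 bases from that of the glycosyltransferase B3gnt2, at 666 and 1520 (1.12). After the local surface correction the Trim13 probe was at 1.20 and the member beside it at 0.79. The B3gnt2 probe was then at 0.72 and chr11:22681800-22707775_R at 0.85.

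chr16:44717531-44724206_R read 21.6 and 58.4 (1.36), and Nepro 29.2 and 85.0 (1.47). chr6:91133122-91133347_R read 88.9 and 205 (1.13), and the matrix protein gene Fbln2, 88846 bases away, 200 and 510 (1.28). Fibroblasts also make Fbln2, and fibroblast markers summed to more on the MeXis null array, though Lum and Col3a1 were lower there. The part of fibroblasts in that pair was not tested. After the local surface correction 0 of these 5 pairs had both probes at least 2-fold higher.

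In opposite directions, chr8:126396600-126407275_F read 65.1 and 165 (1.27) beside the nuclear pore gene Nup133 at 3790 and 1392 (-1.52). chr8:125031410-125075960_F read 33.3 and 82.5 (1.23) beside Cdt1, a replication licensing factor, at 13639 and 6896 (-1.06). chrX:90997595-91009570_R read 204 and 99.8 (-1.10) beside Pdk3, an inhibitor of pyruvate dehydrogenase, at 95.2 and 223 (1.15). After the local surface correction the pairs were at 0.23 and -0.86, 0.83 and -1.11, and -1.002 and 1.11, so the last alone had both probes beyond the spread limit, and its member was at -0.31 with normexp. In 2 of these 3 pairs the lincRNA probe was the one that was higher.

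Members nearest to the left-out interval of chromosome 4 showed no difference beyond the spread limit where they could be read. Below it, chr4:44181997-44249172_F read 121 and 79.1 (-0.69) and chr4:45079022-45096897_R read 62.1 and 60.98 (-0.10), and the third was not well above background. Above it, chr4:62367014-62386800_F and chr4:63915086-63937637_R were seen on neither array, and chr4:71767271-71767964_R read 3205 and 2895 (-0.22). On all of chromosome 4 outside the interval, 71 of 256 members were seen on both arrays, with a median difference of 0.12. Of these 71, 5 were at least 2-fold higher and 4 lower, against 8.04% and 4.53% of all probes seen on both arrays. Medians of the other chromosomes ranged from -0.09 on chromosome 12 to 0.27 on chromosome 3. The share of members seen on both arrays ranged from 16.0% on chromosome 3 to 35.7% on chromosome 17, where 8 of the 85 seen on both arrays (9.41%) were 2-fold higher and 0 lower, against 7.19% and 4.50% of all probes of that chromosome.

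The threshold of 2-fold cut through a continuous range. Just inside it were chr19:54011403-54019143_R (1.01), chr17:6426800-6528950_F (1.01) and chr4:35106125-35127700_R (1.01), and just outside chr4:136856064-136877219_F (0.99), chr6:3333825-3349525_R (0.99) and chr10:6480075-6603900_F (0.98). On the lower side chr4:116791819-116798263_R (-1.03), chr6:108162092-108162886_R (-1.04) and chr8:119092623-119094219_R (-1.04) were inside. chr18:46651944-46652663_R (-0.98), chr7:16633756-16634410_F (-0.98) and chr11:6748267-6818192_R (-0.97) were outside.

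Sequence shared between probes was common enough to bear on a few pairs. A stretch of at least 25 bases was shared with a probe of another kind by 20 members, of which 9 were seen on both arrays, and with a member of another region by 103, of which 38 were. chr9:88575075-88611650_R, which shares 50 bases with the probe of the folate enzyme gene Mthfs, read 14503 and 18630 (0.29), and Mthfs 13490 and 13925 (-0.03). chr8:40100925-40196350_F, which shares 46 bases with the probe of Tusc3, a subunit of the oligosaccharyltransferase, read 1465 and 1330 (-0.21), and Tusc3 706 and 2217 (1.58). Shared sequence thus went with like values for Mthfs and with unlike ones for Tusc3.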

How the data were processed

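RNA pooled from 3 samples per genotype was measured on 1 array for WT and 1 for MeXis null. Per the file headers, the deposited intensity values come from Feature Extraction (Agilent, version 11.5.1.1), which subtracted background and a trend fitted across the surface, and positions refer to mm9. Values in the series matrix were identical to these for each of the 62976 features. Both arrays were on 1 slide, scanned on 1 day.

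Control spots and spots marked as outliers on either array were left out, and no spot was saturated. The value was log2 of the processed signal minus the array's 75th percentile over spots well above background on both arrays, averaged over spots of a probe. The scanner error combines the software's errors of both signals. Array number limits the precision, since 1 array per genotype gives no replicate check. The members, lists and rules were chosen with earlier results of these data known.

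Named members were the 10 furthest in each direction among those beyond the 95% range of the scanner error, the 5 largest bounds in each direction, the 10 brightest (1 of these is not reported here), the probes of the 5 brightest regions with at least 2 probes seen on both arrays, members with a known noncoding RNA name, up to 5 pairs with the nearest gene in each direction class, 3 members on either side of each 2-fold threshold and 3 on either side of the left-out interval. Other probes of their loci, members printed 10 times, and chr16:90038086-90127636_F, chr4:33364774-33364898_R, Mthfs, Tusc3, Rps29 and Ifitm3 with the members that share their sequence, were named after their values were seen. Runs of C and G were chosen after the brightest sequences had been read. Symbols of genes came from RefSeq's table for GRCm38.p6, from which no coordinate was taken.

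The following alternatives were tried: normexp (limma 3.58.1 in R 4.3.3, offset 50), quantile normalization, loess on level (span 0.3), median scaling, scaling to the 75th percentile over every non-control probe, a local surface correction from the 100 nearest spots, the series matrix, outlier spots kept, other detection flags, other filters on dim probes and other thresholds. Other steps ran in Python 3.11.15 with pandas 2.3.3 and scipy 1.17.1, tested on simulated data.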

Additional observations from a re-analysis of the deposited data

How the results depend on the processing

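Detection depended on the flag: with the weaker positive-and-significant flag 2367 members were seen on WT and 2159 on MeXis null. The median difference of 0.06 was near 0 in every setting that kept the detection filter: it was -0.013 with quantile normalization, -0.064 with loess, -0.0040 with scaling to the median, -0.016 with the 75th percentile of all probes, -0.011 with the local surface correction and -0.0023 for members of at least 100 on both arrays. Without a filter on dim probes it was 0.57, with 869 members 2-fold higher and 230 lower. The count of 64 higher members became 21 with normexp, 42 with loess (41 lower), 24 with the local surface correction and 19 at a signal of at least 100. It became 183 at 1.5-fold (119 lower) and 8 at 3-fold (2 lower). The causes of these changes were not tested, beyond the thresholds and filters themselves. The series matrix and kept outlier spots changed no call. Shares of same-sign pairs stayed within their exact intervals. Of 62 named members seen on both arrays, 28 moved by over 0.47 with normexp and 21 with the local surface correction, and none of those called 2-fold changed sign. Over all 88 members called, 1 did with normexp, chr8:10886200-10905925_R, from -1.11 to 0.18. No replicate could be left out, and no paired analysis was possible because each genotype has 1 array. Depth in the sense of signal over background limits the results below a signal of about 100, where 45 of the 64 higher members lay on WT and 23 on MeXis null.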
